A study of Mus musculus with 6 samples.

Results

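The 8 AP-1 genes described here were measured in sorted mouse CD4 T cells. They are Fos, Fosb and Fosl2 of the Fos family, Jun, Junb and Jund of the Jun family, Atf3 and Maff. They were chosen by name, with earlier results of these data known. All 8 were found among the 47729 genes of the count table, and all 8 had enough counts to be tested. AP-1 is a transcription factor made of 2 proteins that each carry a basic leucine zipper, a helix that binds DNA and pairs with its partner. Jun proteins pair with one another or with Fos proteins, whereas Fos proteins need a partner of another family. In T cells many of these genes are immediate early genes, transcribed within minutes of T cell receptor signalling from factors already in the cell. Their mRNAs are short-lived, and Fos and Jun proteins bind beside NFAT in the control regions of cytokine genes.

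The 3 groups were OFF, ON and WT, with 2 libraries each, made from T cells sorted from spleen. OFF cells came from RBPJind mice given doxycycline (Dox) for 3 weeks and then kept 1 week without it. ON cells came from RBPJind mice given Dox for 4 weeks, so that the cells had matured with Notch signals. RBPJ is the DNA-binding factor through which Notch receptors act, and the driver of the inducible allele is not given in the sources used here. OFF and ON cells were both sorted as CD3+CD4+CD25-CD45RBint cells, called immature naive T cells in the labels. WT cells were CD3+CD4+CD25-CD45RBhi cells of wild-type mice, with the treatment also labelled Dox and no duration given. OFF against ON therefore compares cells of 1 genotype and gate that differ in the last week of Dox. Comparisons with WT differ in genotype and in the CD45RB gate together, which cannot be told apart. The labels give replicate numbers but no animals, ages or pooling, so the p-values reflect the spread between these libraries alone, which may be technical.

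Genes took 17025551 to 19319183 counts per library, and libraries were scaled by TMM and expressed as CPM, the count of a gene scaled to a common library size. The summed level of 8 CD4 T cell markers, led by Ptprc, which encodes CD45, was 4461 and 5035 CPM in OFF, 4719 and 5081 CPM in ON, and 4182 and 4046 CPM in WT. The pair of ON libraries differed most from each other, with a chi-square per degree of freedom of 69.5 across genes, against 20.1 in the OFF pair and 9.90 in the WT pair. Calls below use edgeR's quasi-likelihood test over all 15780 tested genes, with Benjamini-Hochberg adjustment and a threshold of 0.05. In bulk samples such as these, fewer cells of a type and less RNA per cell cannot be told apart.

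The start-site sequences are shown for Fos and Fosb, called in OFF over ON, and for Jun, not called with the settings as reported. They are the 250 bases before the RefSeq start on GRCm38.p6, 5′ to 3′ on the strand of the gene. Capitals mark TGACG (the core of the cyclic AMP response element), TATAAA, TGANNTCA (an AP-1-like site) and TGGGAA (the core of the site bound by RBPJ), each searched on both strands.
Fos, chr12:85473640-85473889, plus strand: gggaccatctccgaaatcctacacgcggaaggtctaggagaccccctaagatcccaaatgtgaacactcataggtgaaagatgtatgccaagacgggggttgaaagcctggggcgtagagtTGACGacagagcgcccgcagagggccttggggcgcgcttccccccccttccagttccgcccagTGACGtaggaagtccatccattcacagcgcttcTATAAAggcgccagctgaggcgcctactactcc
Fosb, chr7:19310046-19310295, minus strand: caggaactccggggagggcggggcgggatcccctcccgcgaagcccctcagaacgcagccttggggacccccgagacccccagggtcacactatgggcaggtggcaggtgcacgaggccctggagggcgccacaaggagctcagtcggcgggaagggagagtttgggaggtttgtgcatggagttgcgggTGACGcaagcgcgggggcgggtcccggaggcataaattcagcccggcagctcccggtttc
Jun, chr4:95052223-95052472, minus strand: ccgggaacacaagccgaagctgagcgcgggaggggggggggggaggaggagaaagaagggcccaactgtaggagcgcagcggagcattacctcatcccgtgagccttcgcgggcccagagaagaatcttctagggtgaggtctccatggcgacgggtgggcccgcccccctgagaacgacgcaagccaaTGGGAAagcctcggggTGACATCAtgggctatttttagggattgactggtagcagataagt

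Counting from -1 at the last base before the start, Fos held TGACG at -129 and -66 and TATAAA at -33. Fosb held TGACG at -60, and Jun held TGACATCA at -45 and TGGGAA at -61. The motifs were searched in windows of 250 bases before and 50 bases after the start, of which RefSeq gave 10 for the 8 genes, 3 of them for Maff. TGACG was found in 6 of the 10 windows, which belonged to Fos, Fosb, Junb, Atf3 and Maff, and in 20.8% of all 32841 windows of this length. The full element TGACGTCA, which contains TGACG and also has the form TGANNTCA, was found in 1 window of Maff and in 1.79% of all windows. TGANNTCA was found in 4 windows, of Jun, Jund and Maff, and in 14.1% of all windows. The RefSeq window of Jund lay before the start of the Jund gene annotated in GENCODE and did not overlap it. TATAAA stood in 2 windows (Fos and Junb) and 13.6% of all, and GGGCGG, the Sp1 box, in 7 windows and 35.7% of all. TGGGAA stood in the windows of Jun and Jund and in 25.6% of all. TGANTCA, the AP-1 site of 7 letters, and the CArG box bound by serum response factor were in none of the 10 windows, against 7.81% and 1.63% of all. These matches describe letters only, and a missing match says only that the letters are not in this window.

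The 3′ UTRs are shown at 1 site each because AU-rich elements, built on the pentamer ATTTA, are the bases through which many immediate early mRNAs are degraded. The following 30 bases come from the longest GENCODE 3′ UTR of each gene, with ATTTA in capitals.
Fos: attgtgttttcaATTTATTTAttaagatgg
Fosb: ccacccccagctATTTAtccctttcctggt
Jun: tccagaaaggatATTTAagaaaatacaata
Fos had 4 pentamers in 815 bases, or 4.91 per kilobase, of which the site shown holds an overlapping pair. Jun had 4 in 1233 bases, or 3.24 per kilobase. Fosb had 1 in 2302 bases, or 0.434 per kilobase. Junb had 2 pentamers, Jund 1, Atf3 3, Maff 4 and Fosl2 8, the last in a 3′ UTR of 4653 bases. Over 20793 protein-coding genes the median was 1.2 per kilobase, and 66.6% had a pentamer at all.

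With the settings as reported, Fosb and Fos were the members called between OFF and ON cells. Fosb rose 2.61-fold and Fos rose 1.69-fold in OFF cells over ON cells. Over 15 alternative fits, with other settings or a library left out, the Fosb call held in all and the Fos call was lost in 7. Both also rose over WT cells, by 2.12-fold for Fosb and 2.11-fold for Fos. Against WT, the Fos call held in all 15 alternatives and the Fosb call in 14. None of the 8 genes differed between ON and WT cells past the threshold. Jun, Junb, Jund, Fosl2 and Maff had their OFF libraries above their ON libraries by smaller amounts that did not pass with these settings. Atf3 was counted too rarely to be placed.

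Fos (ENSMUSG00000021250, chromosome 12, 85473890 to 85477273 on GRCm38) encodes the protein that gave the family its name and is a classic marker of recent signalling. Its level was 77.7 and 79.3 CPM in OFF, 49.0 and 44.0 CPM in ON, and 34.9 and 39.4 CPM in WT. The OFF libraries were close to each other and above every other library, and both ON libraries stood above both WT libraries. The means were 78.5 ± 1.11 CPM in OFF, 46.5 ± 3.54 CPM in ON and 37.2 ± 3.13 CPM in WT (SD, n = 2 each). The log2 fold change of OFF over ON was 0.76 with a standard error of 0.125 (95% confidence interval 0.48 to 1.04, edgeR adjusted p = 0.0287). Leaving out ON 1 gave a log2 fold change of 0.84. The call was lost without OFF 1, OFF 2, ON 2, WT 1 or WT 2, while the log2 fold change stayed between 0.67 and 0.78. It was also lost when only the 4 OFF and ON libraries were fitted (adjusted p = 0.0859), within a range of 0.00100 to 0.0992 over the alternatives. Against WT, the log2 fold change of OFF was 1.08 with a standard error of 0.127 (edgeR adjusted p = 0.00156). That call held in all 15 alternatives, with log2 fold changes of 1.00 to 1.20. ON over WT gave a log2 fold change of 0.32 (95% confidence interval 0.04 to 0.61, edgeR adjusted p = 0.120), which did not pass.

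Fosb (ENSMUSG00000003545, chromosome 7, 19302696 to 19310051) encodes a close relative of Fos that is also induced by signalling. Its level was 33.5 and 39.2 CPM in OFF, 15.2 and 12.7 CPM in ON, and 14.8 and 19.4 CPM in WT. The OFF libraries stood above all others, while 1 ON library lay between the WT libraries. The means were 36.3 ± 4.10 CPM in OFF, 13.9 ± 1.76 CPM in ON and 17.1 ± 3.20 CPM in WT (SD, n = 2 each). The log2 fold change of OFF over ON was 1.38 with a standard error of 0.179 (95% confidence interval 0.98 to 1.78, edgeR adjusted p = 0.00933). This was the only member call between OFF and ON that held in all 15 alternatives, with log2 fold changes of 1.24 to 1.52 and adjusted p of 3.07e-07 to 0.0282. Against WT, the log2 fold change of OFF was 1.09 with a standard error of 0.178 (edgeR adjusted p = 0.00814), and this call was lost without WT 1 (log2 fold change 0.92, adjusted p = 0.107). ON over WT was -0.30 (edgeR adjusted p = 0.314).

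**Figure D1:**
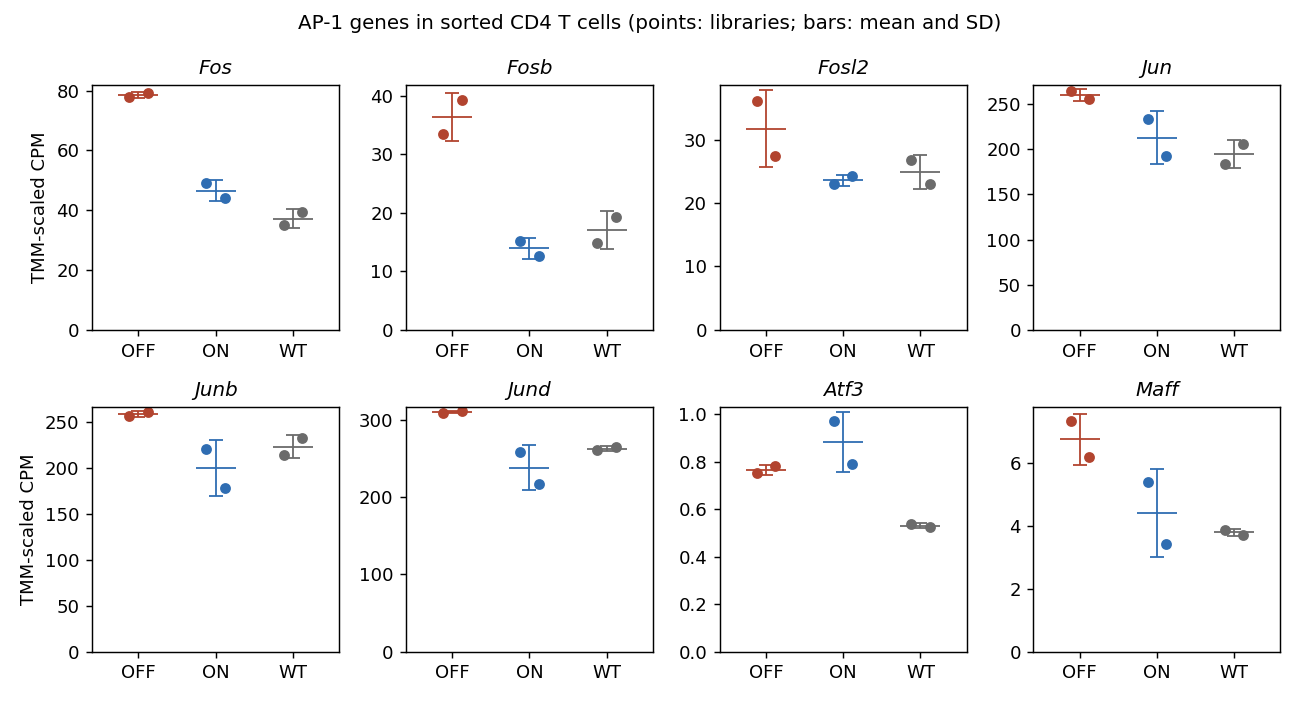
TMM-scaled CPM of each AP-1 gene (vertical axes, starting at 0) in the OFF, ON and WT groups. Points are libraries and bars are the mean and SD of 2 libraries; in the Fos and Fosb panels the OFF points stand above all others, and Atf3 lies under 1 CPM throughout.

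Fosl2 (ENSMUSG00000029135, chromosome 5, 32135801 to 32157842) encodes Fra-2, a Fos protein without the long activating end of Fos and Fosb. Its level was 36.1 and 27.4 CPM in OFF, 23.0 and 24.2 CPM in ON, and 26.7 and 23.0 CPM in WT. The OFF libraries lay further apart than those of the other groups, at 31.7 ± 6.11 CPM against 23.6 ± 0.908 CPM in ON and 24.9 ± 2.63 CPM in WT (SD, n = 2 each). OFF over ON gave a log2 fold change of 0.43 (95% confidence interval 0.06 to 0.80, edgeR adjusted p = 0.204). OFF over WT gave 0.35 (edgeR adjusted p = 0.254) and ON over WT -0.08 (edgeR adjusted p = 0.798). The OFF libraries did not overlap those of ON or WT, but the ON and WT libraries overlapped.

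The Jun family genes were the most abundant members. Jun (ENSMUSG00000052684, chromosome 4, 95049034 to 95052222), the partner protein through which Fos proteins bind DNA, had 264.7 and 255.0 CPM in OFF, 233.5 and 192.1 CPM in ON, and 183.6 and 205.7 CPM in WT. The OFF libraries were the highest and the ON and WT libraries overlapped. OFF over ON gave a log2 fold change of 0.29 (95% confidence interval -0.01 to 0.58, edgeR adjusted p = 0.270). OFF over WT gave 0.42 (95% confidence interval 0.12 to 0.71, edgeR adjusted p = 0.0936), and passed without ON 1 (adjusted p = 0.0289) or without ON 2 (adjusted p = 0.0333). ON over WT gave 0.13 (edgeR adjusted p = 0.551).

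Junb (ENSMUSG00000052837, chromosome 8, 84974484 to 84978718) encodes a Jun protein that acts in helper T cell differentiation. It had 256.2 and 260.9 CPM in OFF, 221.0 and 178.0 CPM in ON, and 214.2 and 231.9 CPM in WT. The OFF libraries agreed closely and stood above the rest, whereas the ON libraries lay on either side of the lower WT library. OFF over ON gave a log2 fold change of 0.37 (95% confidence interval 0.08 to 0.67, edgeR adjusted p = 0.169), OFF over WT 0.21 (edgeR adjusted p = 0.395) and ON over WT -0.16 (edgeR adjusted p = 0.445).

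Jund (ENSMUSG00000071076, chromosome 8, 70698949 to 70700616) encodes the Jun protein that is made in most resting cells. It had 309.1 and 311.2 CPM in OFF, 258.6 and 217.1 CPM in ON, and 260.7 and 264.7 CPM in WT. Its 3 groups did not overlap, with OFF highest and ON lowest. OFF over ON gave a log2 fold change of 0.38 (95% confidence interval 0.11 to 0.66, edgeR adjusted p = 0.144), OFF over WT 0.24 (edgeR adjusted p = 0.291) and ON over WT -0.14 (edgeR adjusted p = 0.470). Without ON 1, the higher ON library for both genes, Junb (log2 fold change 0.55) and Jund (0.52) passed the test for OFF over ON (adjusted p = 0.0456 for each).

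Reads of the Jun genes can be shared with neighbours, since the strand used in counting is not given. Jun shares 232 exon bases with the antisense gene Junos, which had 29 to 38 counts per library. Jund shares 877 exon bases with the antisense gene Gm11175, which had 16 to 35 counts. Junb shares 173 bases with Prdx2 on the opposite strand, which had 400 to 839 counts and was higher in ON than in WT (log2 fold change 0.66, edgeR adjusted p = 0.0182) and in OFF than in WT (0.60, edgeR adjusted p = 0.0421). The part of these overlaps in the values was not tested, and no other member shares exon bases with another gene.

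Maff (ENSMUSG00000042622, chromosome 15, 79346621 to 79359076) encodes a small Maf protein, which binds DNA but lacks an activating domain. It had 7.34 and 6.19 CPM in OFF, 5.42 and 3.42 CPM in ON, and 3.89 and 3.72 CPM in WT. The OFF libraries were the highest, and the ON libraries lay on either side of the WT pair. OFF over ON gave a log2 fold change of 0.62 (95% confidence interval 0.01 to 1.23, edgeR adjusted p = 0.259). OFF over WT gave 0.83 (95% confidence interval 0.19 to 1.47, edgeR adjusted p = 0.122) and ON over WT 0.21 (edgeR adjusted p = 0.675).

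Atf3 (ENSMUSG00000026628, chromosome 1, 191170296 to 191218039) encodes a stress-induced factor that pairs with Jun proteins. It was counted 13 and 13 times in OFF, 19 and 16 times in ON, and 9 and 9 times in WT. These are 0.751 and 0.781 CPM in OFF, 0.971 and 0.793 CPM in ON, and 0.538 and 0.523 CPM in WT. The libraries of the 3 groups did not overlap, but so few counts leave wide errors. OFF over ON gave a log2 fold change of -0.20 (95% confidence interval -1.23 to 0.83, edgeR adjusted p = 0.850), OFF over WT 0.52 (edgeR adjusted p = 0.635) and ON over WT 0.72 (edgeR adjusted p = 0.363).

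Counted together, 2 of the 8 genes passed the test as higher in OFF relative to ON, against 0.602% of all genes tested, and 0 passed as lower, against 0.425%. Of the 8, 6 had an unadjusted p under 0.05 in edgeR, as did 19.1% of all genes. The libraries did not overlap for 7 genes higher in OFF than in ON, against 23.4% of all genes, and for Atf3 lower in OFF, against 23.3%. The median log2 fold change of the 8 was 0.41, beside 0.0011 over all genes. Against WT, 2 were called higher in OFF and 0 lower, against 4.70% and 2.14% of all genes, and 4 had an unadjusted p under 0.05, as did 22.1% of all genes. The OFF libraries lay above the WT libraries for all 8, against 29.8% of all genes that were higher without overlap and 25.8% that were lower, and the median log2 fold change was 0.47 beside 0.011. OFF against ON and OFF against WT share the OFF libraries. Because the 8 genes were chosen with earlier results of these data known, their shares beside those of all genes are a description. This holds for ON against WT below as well.

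Between ON and WT, edgeR called 0 of the 8 higher and 0 lower, while it called 9.68% of all genes higher and 5.16% lower. With upper quartile scaling, the 1527 higher and 815 lower calls over all genes became 1272 higher and 1091 lower. Fos alone, 1 of 8, had an unadjusted p under 0.05, as did 30.5% of all genes, and DESeq2 and limma-voom also called 0. Fos and Atf3 were higher in ON without overlap, against 29.8% of all genes, and Jund was lower, against 30.0%. The other 5 overlapped, and the median log2 fold change of the 8 was 0.03.

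**Figure D2:**
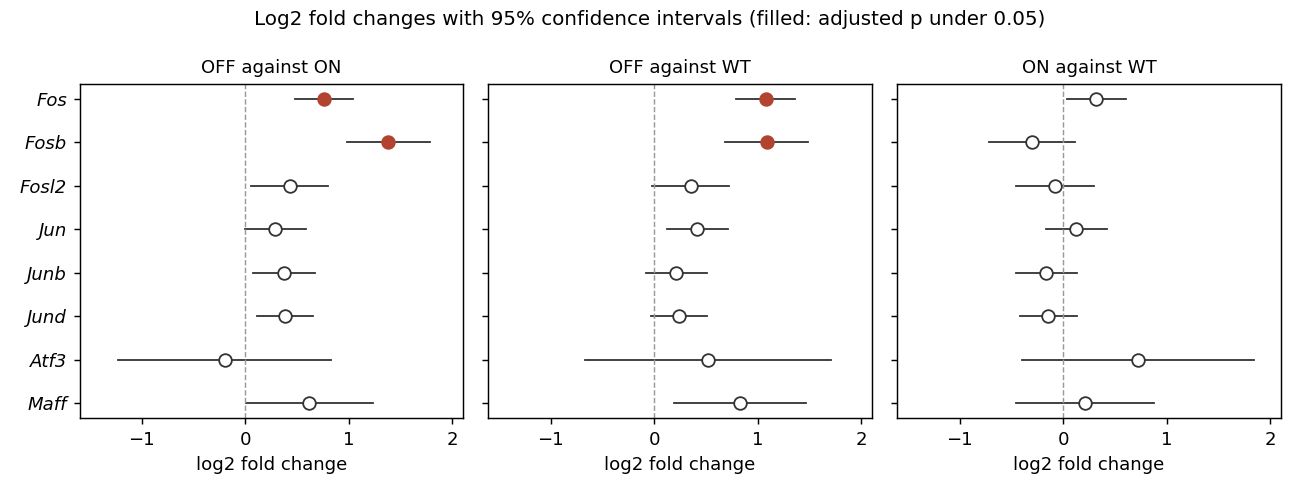
Log2 fold changes (horizontal axes) of the 8 AP-1 genes for OFF against ON, OFF against WT and ON against WT, from edgeR, with 95% confidence intervals as lines. Filled points passed the threshold of 0.05 after adjustment: Fos and Fosb in both OFF comparisons, and none in ON against WT.

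Levels can be compared between genes only per length. Per kilobase of exon, Jund had the highest level in all 3 groups, at 185.9 CPM per kilobase in OFF, 142.6 in ON and 157.5 in WT. Junb followed with 112.4 in OFF, 86.7 in ON and 96.9 in WT, and Jun with 81.5, 66.7 and 61.0 CPM per kilobase in the same 3 groups. Fos had 33.4 CPM per kilobase in OFF, 19.8 in ON and 15.8 in WT. Fosb had 5.82 in OFF, 2.23 in ON and 2.74 in WT, and Fosl2 had 3.28, 2.44 and 2.57 in that order of groups. The Fosb and Fosl2 libraries overlapped per length in ON and in WT, whereas in OFF both Fosb libraries were higher. Maff had 2.61 CPM per kilobase in OFF, 1.70 in ON and 1.47 in WT, and Atf3 had 0.356 in OFF, 0.410 in ON and 0.246 in WT, the lowest level in every group.

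Ratios of counts within a library do not depend on library scaling. Fosb to Fos was 0.431 and 0.495 in OFF, 0.310 and 0.289 in ON, and 0.425 and 0.492 in WT. The ON libraries stood below the others, and OFF and WT overlapped. Fos to Jun was 0.294 and 0.311 in OFF, 0.210 and 0.229 in ON, and 0.190 and 0.191 in WT, with no overlap between groups. Fosb to Jun was 0.126 and 0.154 in OFF, 0.0650 and 0.0661 in ON, and 0.0808 and 0.0941 in WT. Relative to Jun, both Fos and Fosb stood higher in every OFF library than in any ON or WT library. Junb to Jun was 0.968 and 1.02 in OFF, 0.946 and 0.927 in ON, and 1.17 and 1.13 in WT, so that OFF and ON libraries were close and WT libraries higher. Summed CPM of the Jun family over summed CPM of the Fos family was 5.64 and 5.67 in OFF, 8.19 and 7.26 in ON, and 8.61 and 8.59 in WT. The mRNA of Fos family members was scarcest relative to Jun family members in WT and least scarce in OFF. These ratios are descriptions without a test.

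**Figure D3:**
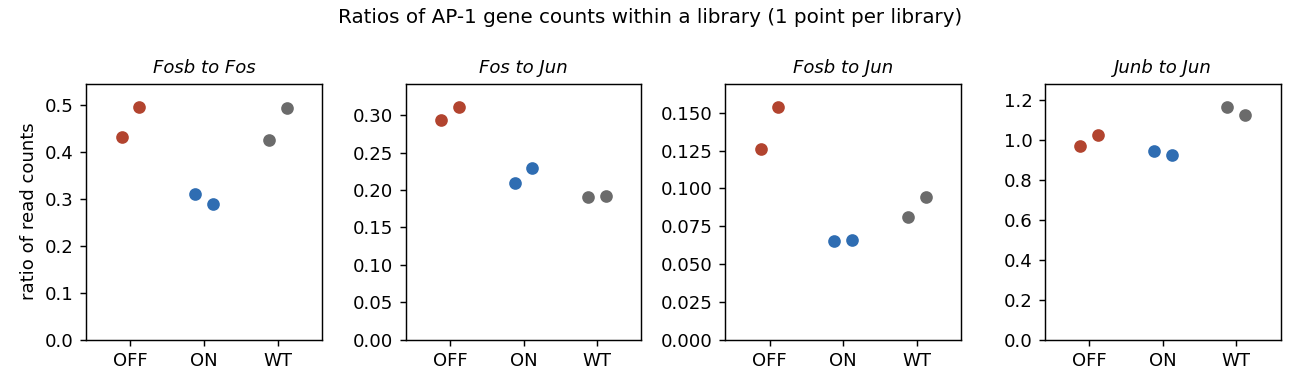
Ratios of read counts within a library (vertical axes, starting at 0) for Fosb to Fos, Fos to Jun, Fosb to Jun and Junb to Jun, with 1 point per library in OFF, ON and WT. Fos to Jun lies at 0.294 or above in OFF and at 0.229 or below elsewhere, whereas Junb to Jun is highest in WT.

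The members varied to unequal extents. Between the lowest and the highest of the 6 libraries, the log2 range was 1.62 for Fosb, 1.18 for Fos, 1.08 for Maff, 0.77 for Atf3 and 0.65 for Fosl2. It was 0.55 for Junb, 0.53 for Jun and 0.52 for Jund. Likeness of pattern was measured as the root mean square difference between log2 CPM values centred on the mean of the 6 libraries. Of the 28 pairs of members, Junb and Jund were the most alike, at 0.034. Jun differed from Jund by 0.12 and from Junb by 0.13. Fos was nearer to Maff, at 0.21, than to Fosb, at 0.30. The least alike pair was Fosb and Atf3, at 0.65, and for Atf3 counting error adds to the difference.

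The genes outside the family with the most similar patterns were found among 8873 protein-coding genes with a mean of at least 5 CPM. For Fos they were Egr3 (0.11), an immediate early zinc finger factor, Rasgrf2 (0.14), an activator of Ras proteins, and Gch1 (0.14), which starts the synthesis of tetrahydrobiopterin. The median difference of all candidates from Fos was 0.48. Egr3 had 28.3 and 32.9 CPM in OFF, 16.9 and 18.9 CPM in ON, and 14.3 and 15.5 CPM in WT. For Fosb they were Bcl6 (0.15), a repressor needed by follicular helper T cells, Kctd12 (0.21), an auxiliary subunit of GABA-B receptors, and Gch1 (0.28), with a median of 0.63 over candidates. Bcl6 had 43.5 and 49.5 CPM in OFF, 25.0 and 17.0 CPM in ON, and 20.9 and 22.6 CPM in WT. For Jun they were Cox15, Adnp2 and Mex3a, at 0.051, 0.052 and 0.057, with a median of 0.26. These genes were picked for their likeness, so their values are a description.

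**Figure D4:**
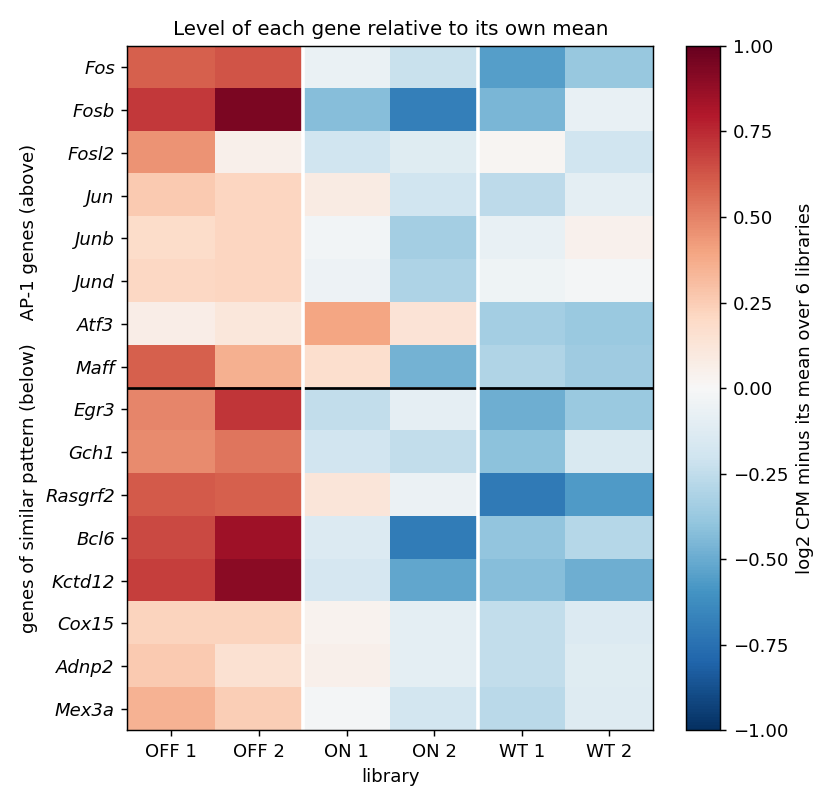
Heatmap of log2 CPM minus the mean of the 6 libraries (colour scale, red above the mean and blue below) for the 8 AP-1 genes, above the black line, and the genes most like Fos, Fosb or Jun, below it, in the OFF, ON and WT libraries (columns). Every AP-1 gene but Atf3 is highest in an OFF library, Fosb spans the widest range (1.62 on the log2 scale), and Atf3 is highest in ON 1.

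Other basic leucine zipper genes encode proteins that pair or compete with those of AP-1. Of 21 tested, 0 were called higher and 2 lower in OFF than in ON by edgeR, where 9 had an unadjusted p under 0.05 and DESeq2 called 3 and limma-voom 1, with a median log2 fold change of -0.16. The 2 were Maf, a large Maf factor of cytokine-producing T cells, and Mafg, a small Maf protein like Maff. Maf had 29.1 and 43.0 CPM in OFF, 90.8 and 74.7 CPM in ON, and 11.2 and 10.8 CPM in WT (OFF over ON log2 fold change -1.20, edgeR adjusted p = 0.0210). Mafg had 11.6 and 10.2 CPM in OFF, 24.8 and 19.5 CPM in ON, and 10.3 and 11.5 CPM in WT (-1.02, edgeR adjusted p = 0.0418). Without OFF 1 or WT 2 the Maf call was lost (adjusted p up to 0.0579), and without OFF 1, OFF 2, WT 1 or WT 2 the Mafg call was lost (up to 0.108). In ON over WT, 7 were called higher (Batf, Batf3, Jdp2, Atf6, Maf, Mafg and Ddit3) and 3 lower (Atf7, Bach2 and Nfe2l2). In OFF over WT, 4 were called higher (Batf, Jdp2, Atf6 and Maf) and 0 lower. Only the calls of Batf, Jdp2 and Maf in ON over WT, and of Maf in OFF over WT, held without each library in turn. Fosl1, the remaining Fos family gene, was too low to test.

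Among 34 other immediate early genes, 2 rose in OFF over ON and none fell, with a median log2 fold change of 0.16, 15 at an unadjusted p under 0.05, 8 DESeq2 calls and 0 limma-voom calls. They were Dusp2, a phosphatase that inactivates MAP kinases, and Zfp36l1, which binds AU-rich elements. Dusp2 had 74.4 and 73.9 CPM in OFF, 46.2 and 49.4 CPM in ON, and 67.7 and 61.3 CPM in WT (log2 fold change 0.63, edgeR adjusted p = 0.0443). Zfp36l1 had 214.1 and 237.2 CPM in OFF, 146.6 and 135.2 CPM in ON, and 147.6 and 172.2 CPM in WT (0.68, edgeR adjusted p = 0.0442). Both calls were lost on leaving out any 1 library other than ON 1 (adjusted p up to 0.152). In OFF over WT, 9 rose (Egr1, Egr2, Egr3, Nr4a1, Nr4a2, Nr4a3, Zfp36l1, Gadd45b and Pim1), with a median of 0.46, and Egr2, Nr4a1 and Nr4a3 held without each library in turn. In ON over WT, 12 rose (Egr2, Ier3, Nr4a1, Nr4a2, Nr4a3, Dusp5, Dusp6, Nfkbia, Gadd45b, Socs3, Id2 and Pim1) and 2 fell (Dusp2 and Klf2), and only Socs3 held throughout. Nr4a1 had 97.2 and 110.2 CPM in OFF, 64.7 and 75.5 CPM in ON, and 38.2 and 36.2 CPM in WT. Its ON libraries therefore stood above its WT libraries, as those of Fos did, and unlike those of Fosb.

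Of 17 upstream transcription factors that act on the Fos and Jun promoters, edgeR called Elk4 alone, higher in OFF than in ON. In that comparison 16 of the 17 had a log2 fold change above 0, with a median of 0.27 beside 0.0011 over all genes, 7 had an unadjusted p under 0.05, DESeq2 called 2 and limma-voom 1. Elk4, a partner of serum response factor, had 348.3 and 352.9 CPM in OFF, 239.1 and 219.9 CPM in ON, and 295.4 and 302.5 CPM in WT (log2 fold change 0.61, edgeR adjusted p = 0.0425). This call too was lost on leaving out any 1 library other than ON 1 (adjusted p up to 0.128). Elk3 and Mef2c rose over WT in OFF and in ON, and Elk4 fell in ON below WT. Of 20 genes of the MAP kinase cascade, edgeR called 0 in OFF against ON, with 5 at an unadjusted p under 0.05, 1 DESeq2 call and 0 limma-voom calls. Over WT, Map3k5 rose in OFF, Map2k2 and Rps6ka4 rose in ON, and Braf and Rps6ka3 fell in ON. Of 19 genes of mRNA decay and protein turnover, edgeR called Zfp36l1 higher in OFF than in ON and in WT, while in ON Hnrnpd rose and Zfp36l2, Pan3 and Usp28 fell relative to WT. In OFF against ON, 5 of the 19 had an unadjusted p under 0.05, and DESeq2 called 2 and limma-voom 0. In OFF against WT, 5 had an unadjusted p under 0.05, and DESeq2 called 1 and limma-voom 0. Of the calls against WT in these 3 lists, only those of Elk3 and Mef2c in OFF held without each library in turn.

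AP-1 acts together with NFAT on many T cell activation genes. A list named for this pair held 12 tested genes, among them Nfatc1, which itself encodes an NFAT protein. Whether AP-1 acts on each of them was not tested. Of these 12, edgeR, DESeq2 and limma-voom each called 0 in OFF against ON. In that comparison 4 had an unadjusted p under 0.05 in edgeR, and the median log2 fold change was 0.14. In OFF over WT, 5 rose (Nfatc1, Irf4, Ikzf2, Ifng and Il2ra), with a median of 0.50. In ON over WT, 6 rose (those 5 and Fasl) and Cd40lg fell, with a median of 0.68. When each library was left out in turn, only Il2ra and Irf4 kept their calls in OFF over WT, and only Ifng, Il2ra and Irf4 in ON over WT. The other calls of this list were lost on leaving out at least 1 library (adjusted p up to 0.195 in OFF over WT and 0.308 in ON over WT). Il2 and Il4 were too low to test. Il2ra and Ikzf2 also belong to the list of regulatory T cell markers given below. Of the 5 genes in that list, edgeR called 5 higher in ON over WT and 4 higher in OFF over WT.

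Several other sets of values are given beside these results, and their part in the Fos and Fosb results was not tested. Of 12 tested genes induced by tissue dissociation or heat, 5 fell in OFF below WT (Hspa1b, Hsph1, Dnaja1, Dnajb1 and Dnajb4) and 6 fell in ON below WT (the same 5 and Hspa1a). All 12 had a log2 fold change of OFF over WT below 0 (median -0.78), with 10 at an unadjusted p under 0.05 in edgeR. In ON over WT, 10 were below 0 and 2 above (median -0.86), with 7 at an unadjusted p under 0.05 in edgeR. Leaving out each library in turn, none of the 5 OFF calls held throughout (adjusted p up to 0.235), and of the 6 ON calls only that of Hsph1 did (the others up to 0.159). In OFF against ON, edgeR called 0 of them, with 2 at an unadjusted p under 0.05, 1 DESeq2 call and 0 limma-voom calls. Summed CPM of 9 B cell markers was 28.8 and 47.4 in OFF, 21.4 and 16.0 in ON, and 6.998 and 8.31 in WT. All 9 had a log2 fold change of OFF over ON above 0, with a median of 1.07, and 8 had an unadjusted p under 0.05, while edgeR, DESeq2 and limma-voom called 0. In OFF over WT 8 of the 9 passed as higher by edgeR and by DESeq2, and 4 of the 9 passed by limma-voom. All 9 were above 0 in that comparison, with a median of 2.16, and had an unadjusted p under 0.05 in edgeR. Fits with a library left out are given here for Ms4a1 alone. The most abundant of them, Ms4a1, which encodes CD20, had 4.04 and 8.41 CPM in OFF, 4.40 and 2.13 CPM in ON, and 0.778 and 0.814 CPM in WT. Its call in OFF over WT (log2 fold change 2.95, edgeR adjusted p = 0.0151) was lost with limma-voom (adjusted p = 0.0533) and without OFF 2, WT 1 or WT 2 (adjusted p up to 0.118). No B cell marker was at 0 in every library, and the part of these markers in the Fos and Fosb results was not tested.

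Summed CPM of 10 myeloid markers was 31.3 and 46.8 in OFF, 33.6 and 29.1 in ON, and 15.1 and 14.8 in WT, and that of 6 dendritic cell markers was 43.0 and 35.9 in OFF, 32.6 and 41.2 in ON, and 8.49 and 5.52 in WT. Regulatory T cell markers summed to 301.0 and 525.2 CPM in OFF, 459.1 and 336.9 CPM in ON, and 71.2 and 53.8 CPM in WT, so that OFF and ON overlapped. The leading genes of these 3 lists were Lyz2, Itgax and Il2rb, and no gene of any marker list was at 0 in every library. Reads without an alignment made up 22.1% and 24.3% of reads in OFF, 14.8% and 9.34% in ON, and 21.8% and 18.8% in WT. The number of genes with a count was 24210 and 25061 in OFF, 29456 and 28288 in ON, and 33138 and 30592 in WT. Over all libraries, CD8 T cell markers summed to 13.8 to 23.7 CPM (mostly Cd8b1), erythroid and platelet markers to 4.19 to 5.86 CPM (led by Itga2b) and stromal and endothelial markers to 161.8 to 237.0 CPM (mostly Pecam1). Of the 2 CD8 T cell markers, edgeR called 1 higher in ON over WT and 1 higher in OFF over WT. It called 4 of 7 tested myeloid markers higher in ON over WT and 3 higher in OFF over WT. Of 5 tested dendritic cell markers, 3 were called higher in each of these comparisons. NK cell markers, mostly Eomes, summed to 42.1 and 49.6 CPM in OFF, 71.6 and 43.8 CPM in ON, and 9.63 and 6.11 CPM in WT. Of the 3 NK cell markers tested, only 1 had a log2 fold change of ON over WT above 0 and 2 were below, with a median of -0.54. In OFF over WT, 2 were above 0 and 1 below, so the sum does not stand for the list. The part of all these values in the results was not tested.

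**Figure D5:**
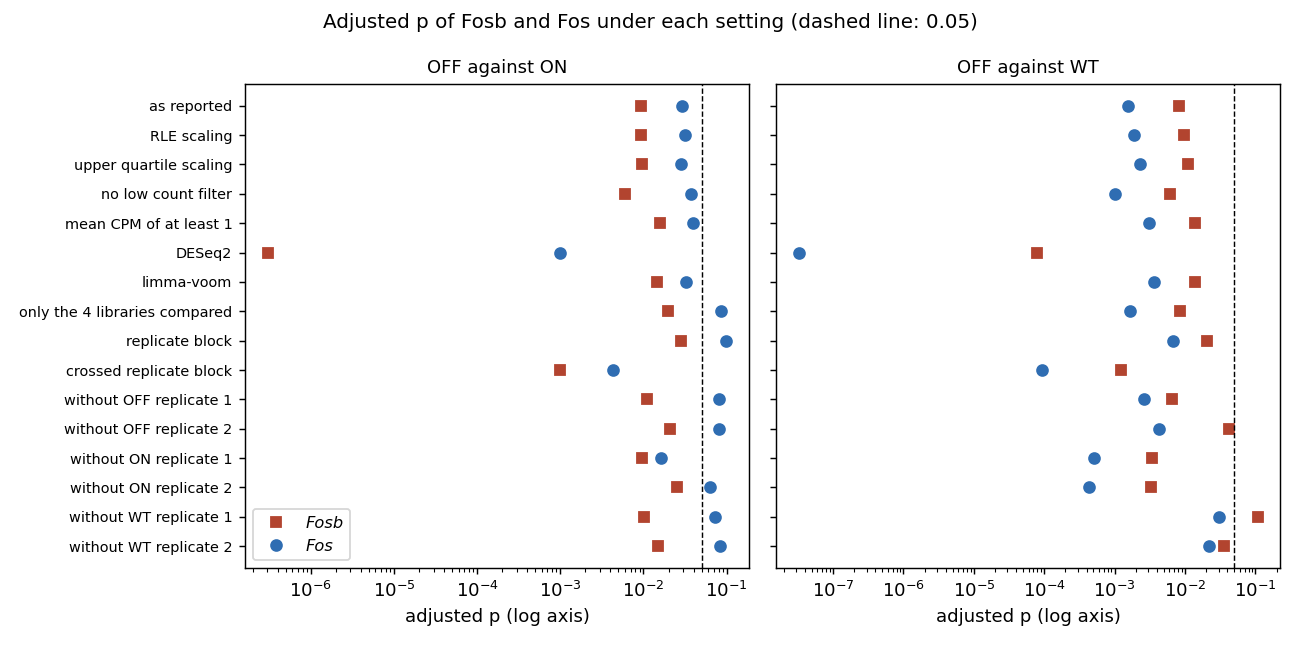
Adjusted p (horizontal log axes) of Fosb (squares) and Fos (circles) for OFF against ON and OFF against WT under each setting, with the threshold of 0.05 as a dashed line. In OFF against ON, Fosb stays left of the line in every setting, whereas Fos lies right of it in 7 settings; in OFF against WT, Fosb crosses it without WT 1.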

How the data were processed

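Total RNA of 6 libraries was sequenced on a NovaSeq and aligned to GRCm38, per the labels' protocols. R 3.6.2 and edgeR appear in the submitters' processing notes. Which aligner, counter, strand setting and annotation release were used is not given in the sources used here. Values in the deposited table are the authors' raw counts, without normalization. Its summary rows for reads not assigned to a gene (53.1% to 66.3% of reads) entered neither library sizes nor tests.

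Identifiers were matched to GENCODE M21 (47310 of 47729). Genes were kept by filterByExpr (minimum count 10, total 15), scaled by TMM and fitted in 1 model of all 6 libraries with edgeR 4.0.16 in R 4.3.3 (robust quasi-likelihood, 3 residual degrees of freedom, biological coefficient of variation 15.8%). DESeq2 1.42.0 and limma-voom 3.58.1 were alternatives, with other scalings and filters, single comparisons, blocks and left-out libraries. The method was tested on simulated data. Promoter windows are from RefSeq. Intervals of fold changes are at 95%.

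The members and lists were chosen with earlier results of these data known. Of each list, genes called in any comparison are named, and for Fos, Fosb and Jun the 3 genes of most similar pattern. Of the marker lists, sums and the gene of highest mean are given.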

Additional observations from a re-analysis of the deposited data

How the results depend on the processing

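With the settings as reported, 162 genes were called in OFF against ON, 2342 in ON against WT and 1078 in OFF against WT, and 2, 0 and 2 of the 8 AP-1 genes. For OFF against ON, the count of genes was 497 with DESeq2, 99 with limma-voom and 58 with only the 4 libraries compared, and 67 to 619 when each library was left out. Of the AP-1 genes, Fosb alone (1) was called with only the 4 libraries compared, and 1 to 4 with a library left out, the 4 (Fos, Fosb, Junb and Jund) without ON 1. For ON against WT, leaving out each library gave 368 to 2397 genes and 0 AP-1 genes each time. For OFF against WT, limma-voom gave 571 genes, and leaving out each library gave 223 to 1602 genes and 1 to 3 AP-1 genes. The counts moved both up and down, and the cause of these shifts was not tested. Fits of fewer libraries also have fewer degrees of freedom, and the part of this in the shifts was not tested either.

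Same-numbered libraries did not deviate together (correlation -0.20 for OFF and ON, 0.08 for ON and WT and -0.21 for OFF and WT). With 2 libraries per group these values cannot tell whether same-numbered libraries shared a batch, and the labels do not say. With the replicate block the counts were 60 genes for OFF against ON, with Fosb as the 1 AP-1 gene called, 1441 for ON against WT and 663 for OFF against WT. With the OFF numbers exchanged, a pairing chosen after seeing the data, the counts were 1210, 3755 and 2082 genes, and Jund was called in OFF against ON and Jun in OFF against WT beside Fos and Fosb.

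In ON against WT, 4 log2 fold changes that passed in no setting changed sign with a library left out: Fosl2 (-0.16 to 0.0393, above 0 without WT 1), Junb (-0.30 to 0.0114) and Jund (-0.25 to 0.0030), both above 0 without ON 2, and Maff (-0.13 to 0.54, below 0 without ON 1). Other scalings moved the median log2 fold change of all genes by at most 0.08. Depth limits Atf3 in every comparison.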
